A study of Mus musculus with 6 samples.

Results

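Glutathione transferases were examined in mouse hair bulbs labelled as lacking functional Notch1 and in control bulbs. The 10 genes are Gsta2, Gsta3, Gsta4, Gstm1, Gstm5, Gsto1, Gstp1, Gstt1, Mgst1 and Mgst3, of 18193 genes with a probe set annotated to them alone, and they were measured by 17 of the 45037 probe sets that are not controls. All probe sets whose platform annotation names 1 of these genes alone were taken. The samples were follicles of mice at postnatal day 9, in the first growth phase of the hair. In emN1 (2 arrays) the follicles came from an area where Notch1 was removed in the embryo. In anN1 (2 arrays) deletion in the area took place during anagen, the growth phase, and the labels give functional Notch1 as present. Wild-type (2 arrays) was the third group. Both anN1 and wild-type served as controls. The first of 2 array sets held 1 emN1 and 1 anN1 array, and the second set the other 4. The labels name neither the recombinase driver, the deleted part of the gene, the strain nor the animals behind a sample.

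Glutathione transferases join the tripeptide glutathione to reactive, electrophilic compounds, which makes these soluble and ready for export, and several also reduce lipid peroxides. The cytosolic enzymes fall into classes named by Greek letters (alpha, mu, omega, pi and theta for the genes here), and the Mgst genes encode a separate family of membrane-bound enzymes. Many are induced by the transcription factor NRF2 (gene Nfe2l2), which binds antioxidant response elements in promoters.

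Some facts of the whole series bear on these values. Signals are on a linear scale, and the background limit was set at 112, below which 95% of the values of 20 bacterial controls lay. These were the controls for E. coli bio genes and B. subtilis dap, taken because they were not detected here, and the limit rests on that choice. Notch1 gave 6498 and 6292 in emN1, against 15077 and 12527 (anN1) and 23750.2 and 34070.4 (wild-type) at its brighter probe set, and 821 and 1561 in emN1, against 1581 and 2789 (anN1) and 2833 and 3720.4 (wild-type) at the other, where 1 emN1 array was close to 1 anN1 array of the other array set. The emN1 signals at both lay far above the background limit, and that functional Notch1 is lacking is taken from the labels. The control probe set for the recombinase Cre gave 434 and 409 in emN1 and 395 and 515 in anN1, against 62.4 and 79.0 in wild-type. Of 16 markers of hair bulb epithelium, 15 were measured, each by a probe set that passed the filter on dim signal. That 0 of these lay under the limit on every array follows from that filter. The ratio of the 5' to the 3' actin control signal was 0.218 (emN1) and 0.177 (anN1) in the first array set and between 0.370 and 0.419 in the second. The array set was a term of every fit.

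The promoters of 3 genes that were lower in emN1 are shown, so that the sequence can be read beside their values. They run from 250 bases before to 50 bases after the annotated start, 5' to 3' in the direction of the gene, as RefSeq gives them. Capitals mark a match to either of a pair of NRF2-type motifs, TGACNNNGC or TGAGTCAGC, sought on both strands.
Gsta2, GRCm38.p6, chr9:78347096-78347395, minus strand: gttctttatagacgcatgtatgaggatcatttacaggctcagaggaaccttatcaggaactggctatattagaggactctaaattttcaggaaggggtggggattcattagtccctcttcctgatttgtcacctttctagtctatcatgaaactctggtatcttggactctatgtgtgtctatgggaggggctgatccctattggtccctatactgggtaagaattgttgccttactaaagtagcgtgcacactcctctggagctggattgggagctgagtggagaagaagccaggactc
Gstp1, GRCm38.p6, chr19:4037863-4038162, minus strand: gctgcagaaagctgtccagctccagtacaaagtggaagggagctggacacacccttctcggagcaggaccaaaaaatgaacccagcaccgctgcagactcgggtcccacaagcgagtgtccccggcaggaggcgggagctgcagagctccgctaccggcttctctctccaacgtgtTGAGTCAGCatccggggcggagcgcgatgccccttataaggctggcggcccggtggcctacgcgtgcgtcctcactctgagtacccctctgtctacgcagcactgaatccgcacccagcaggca
Mgst1, GRCm38.p6, chr6:138140277-138140576, plus strand: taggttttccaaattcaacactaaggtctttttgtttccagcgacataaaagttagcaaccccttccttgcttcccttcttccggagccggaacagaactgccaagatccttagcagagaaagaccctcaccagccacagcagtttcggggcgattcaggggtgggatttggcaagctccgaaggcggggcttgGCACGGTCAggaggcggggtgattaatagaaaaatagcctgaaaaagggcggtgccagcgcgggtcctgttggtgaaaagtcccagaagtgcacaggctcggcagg

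The Gstp1 window held TGAGTCAGC, which begins 74 bases before the start. The Mgst1 window held TGACNNNGC on the opposite strand, 56 bases before the start, and a second Mgst1 window, of another start, held neither. No match was found in the Gsta2 window, and sequence further upstream was not searched for any gene. Of the 10 genes, 9 had a window in the table used, all but Gsta4, and 4 of these, Gsta3, Gstm5, Gstp1 and Mgst1, had a match to either motif, which is 4 of the 11 windows of the 9 genes. Among 32851 promoter windows of this length, 12.4% held TGACNNNGC, 0.414% held TGAGTCAGC and 12.7% held either. A match describes the sequence and shows no binding.

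The central comparison sets emN1 against the 4 control arrays. Of the 17 probe sets, 13 passed the filter on dim signal, for 9 of the 10 genes, and all of their 78 values lay above the background limit. In emN1, 4 of the 13 fell (Gsta2, Gsta4, Gstp1 and Mgst1), 0 rose and 9 did not pass limma with Benjamini-Hochberg adjustment over all 27022 probe sets tested. Across the whole array 1.37% of the probe sets tested were called lower, 2.41% higher and 3.77% in either direction. Both emN1 signals lay under all 4 control signals for 8 of the 13 probe sets, where 9.33% of all probe sets tested did so. For 1 of the 13 (Mgst3) both lay over all controls, where 9.99% of all did so, and for the other 4 the groups overlapped. The median log2 difference was -0.54 over the 13 probe sets and -0.01 over all tested. Several probe sets measure 1 gene here, so the counts describe probe sets and not independent genes. The genes were also chosen with earlier results of these data known. Set beside shares of the whole array, the counts here and below are therefore a description and no test of the family.

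**Figure D1:**
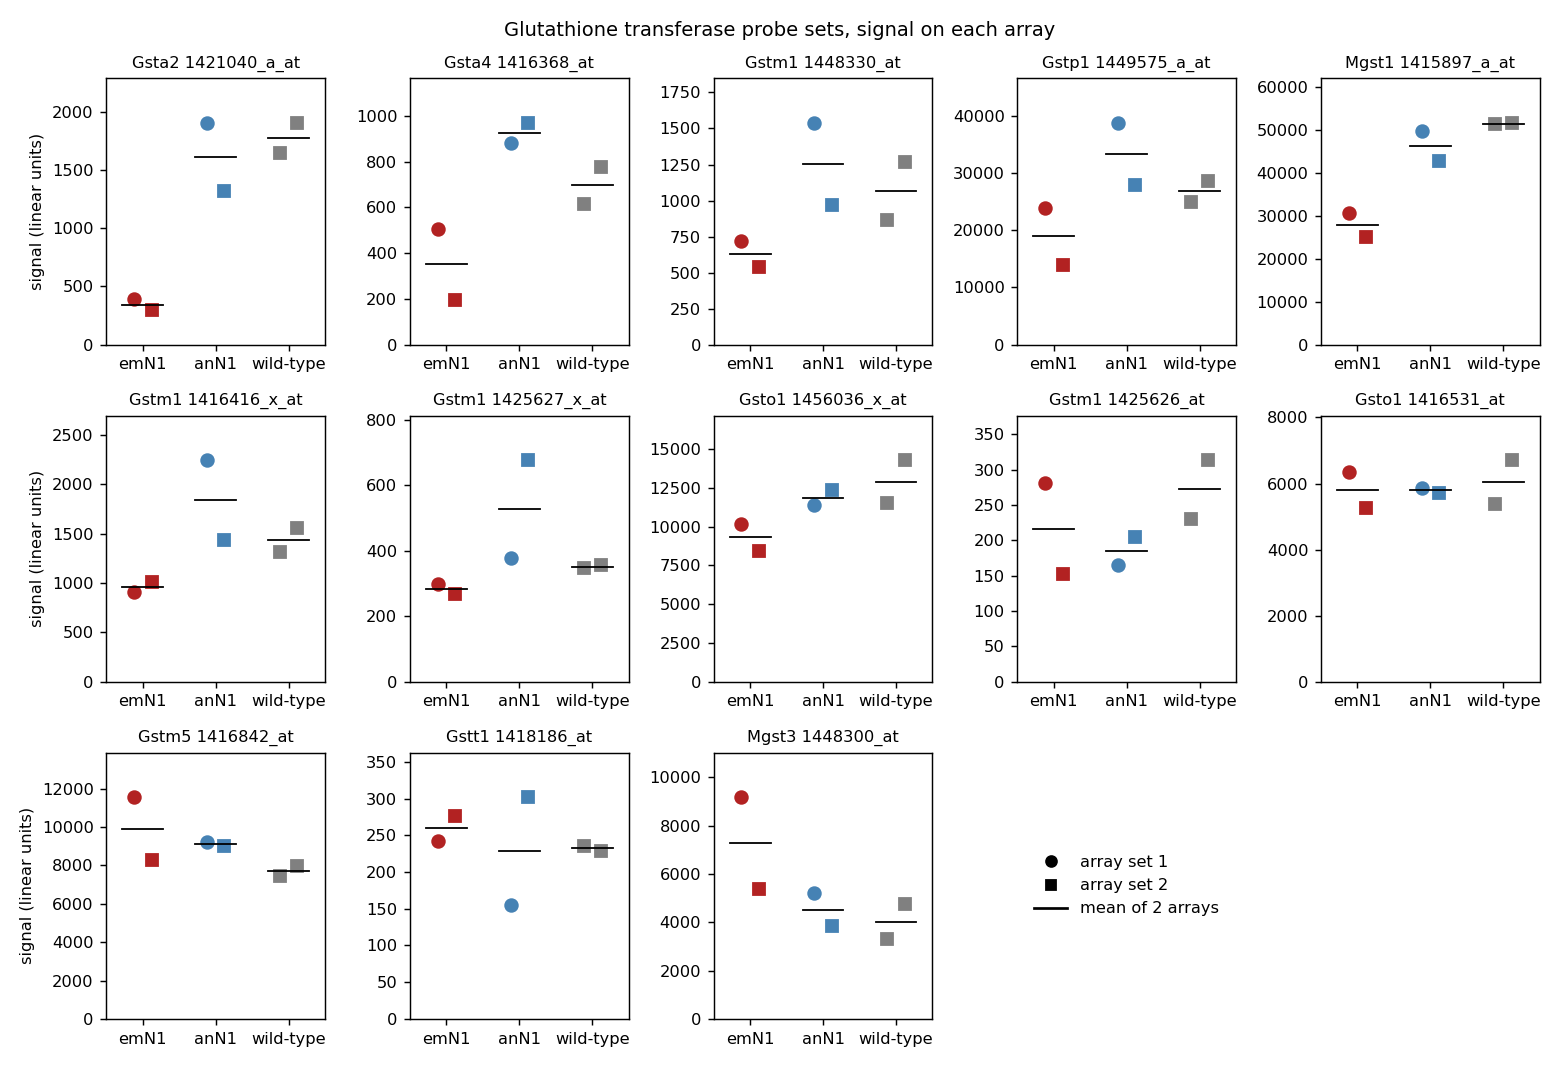
Signal (linear units) of the 13 probe sets that passed the filter, 1 panel each, in emN1, anN1 and wild-type arrays. Circles are the first array set, squares the second and lines the mean of 2 arrays. The emN1 signals of Gsta2, at 392 and 298, lie far under those of all controls, and those of Mgst3 lie over them.

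Among the 13 probe sets, that of Gsta2 had the largest difference. Gsta2, an alpha-class transferase that also reduces lipid peroxides, gave 392 and 298 in emN1, against 1907 and 1317 (anN1) and 1645 and 1905 (wild-type). The lowest control signal was more than 3 times the highest emN1 signal, and the anN1 and wild-type arrays overlapped. Mean signals were 345 ± 66.6 in emN1 (SD, n = 2) and 1694 ± 279.5 in the controls (SD, n = 4). Gsta2 fell by 2.31 on the log2 scale (SE 0.21), a 4.96-fold difference, with a limma adjusted p of 0.00207. The difference was -2.23 within the first array set, which is also the value without emN1 replicate 2. It was -2.36 within the second, which is also the value without emN1 or anN1 replicate 1. It passed in 12 of 14 alternatives and was lost on leaving out emN1 replicate 2 (0.0979), and without the intensity trend (0.0521), values in parentheses being limma adjusted p.

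Some alpha-class genes are close copies of each other, and a probe set annotated jointly to Gsta1, Gsta2 and Gm3776 cannot be assigned to 1 of them and is no member. It gave 355 and 353 in emN1, against 1602 and 1671 (anN1) and 1440.4 and 1670.2 (wild-type). Its signal thus fell by 2.12 on the log2 scale (SE 0.19; limma adjusted p = 0.00190), a call lost on leaving out emN1 replicate 2 (0.0872), and without the intensity trend (0.0521). Whether RNA of a close copy contributes to the Gsta2 probe set was not tested.

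Gsta4, an alpha-class enzyme specialised for hydroxynonenal, a toxic product of lipid peroxidation, gave 506 and 194 in emN1, against 882 and 969 (anN1) and 616 and 777 (wild-type). Both emN1 arrays lay under all controls, and the ratio between them was larger than that between the highest and the lowest control. Gsta4 fell by 1.45 (SE 0.32), a 2.74-fold difference (limma adjusted p = 0.0476), and the difference was -0.78 within the first array set and -1.90 within the second. It passed in 6 of 14 alternatives. The call was lost on leaving out emN1 replicate 1 (0.0868), anN1 replicate 1 (0.0887), emN1 replicate 2 (0.436), anN1 replicate 2 (0.0989) as well as wild-type replicate 1 (0.0798), and without the filter on dim signal (0.0641), without the intensity trend (0.141) and without the array set term (0.219). Without emN1 replicate 2 the difference was -0.78.

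Gsta3, an alpha-class enzyme that in the mouse is known for detoxifying an aflatoxin epoxide, was at background on nearly all arrays. Its probe sets did not pass the filter and were not tested. One gave 17.6 and 26.9 in emN1, against 40.3 and 3.95 (anN1) and 8.72 and 8.93 (wild-type), all under the limit. The other gave 7.51 and 139 in emN1, against 108 and 13.1 (anN1) and 7.56 and 46.3 (wild-type), of which 1 emN1 value lay over the limit.

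Gstp1, the pi-class enzyme, which is abundant in many epithelia, gave 23973 and 13893 in emN1, against 38817 and 27960.4 (anN1) and 25043 and 28580.5 (wild-type). The groups did not overlap, although the higher emN1 signal lay just under the lowest wild-type one, which is of the other array set. Mean signals were 18933 ± 7128 in emN1 (SD, n = 2) and 30100.3 ± 6012 in the controls (SD, n = 4). With the array set as a term, Gstp1 fell by 0.86 on the log2 scale (SE 0.10), a 1.81-fold difference (limma adjusted p = 0.00473). It was -0.69 within the first array set and -0.97 within the second. The call passed in 11 of 14 alternatives and was lost on leaving out emN1 replicate 2 (0.131), and without the intensity trend (0.0937) and without the array set term (0.345). Gstp2 and Gstp3 are its neighbours in the RefSeq gene order, and what a near copy adds to this probe set was not tested.

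Mgst1, an abundant enzyme of the endoplasmic reticulum and the outer mitochondrial membrane, gave 30619.9 and 25185 in emN1, against 49723 and 42724 (anN1) and 51335 and 51686 (wild-type). Every emN1 signal lay well under every control signal. Mean signals were 27902 ± 3843 in emN1 (SD, n = 2) and 48867 ± 4184 in the controls (SD, n = 4). Mgst1 fell by 0.84 on the log2 scale (SE 0.11), a 1.80-fold difference (limma adjusted p = 0.00585), and the difference was -0.70 within the first array set and -0.94 within the second. It passed in 9 of 14 alternatives and was lost on leaving out emN1 replicate 1 (0.0544), anN1 replicate 1 (0.0527) or emN1 replicate 2 (0.161), and without the intensity trend (0.106) and without the array set term (0.0551). A second Mgst1 probe set lay between 3.56 and 91.7 over the 6 arrays, under the background limit, and was not tested.

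Mgst3, a microsomal enzyme that can also conjugate leukotriene, was the 1 gene of the 10 with both emN1 signals over every control. It gave 9184 and 5387 in emN1, against 5199.7 and 3843 (anN1) and 3299.97 and 4759.96 (wild-type). The emN1 array of the first set was the highest, and the other was close to the highest control. The difference of 0.60 (SE 0.17, 95% interval 0.21 to 0.99 without adjustment over probe sets) did not pass (limma adjusted p = 0.105), and without wild-type replicate 2 it passed (0.0268). A dimmer Mgst3 probe set gave 44.6 and 154 in emN1, against 216 and 78.3 (anN1) and 111 and 134 (wild-type) and did not pass the filter.

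**Figure D2:**
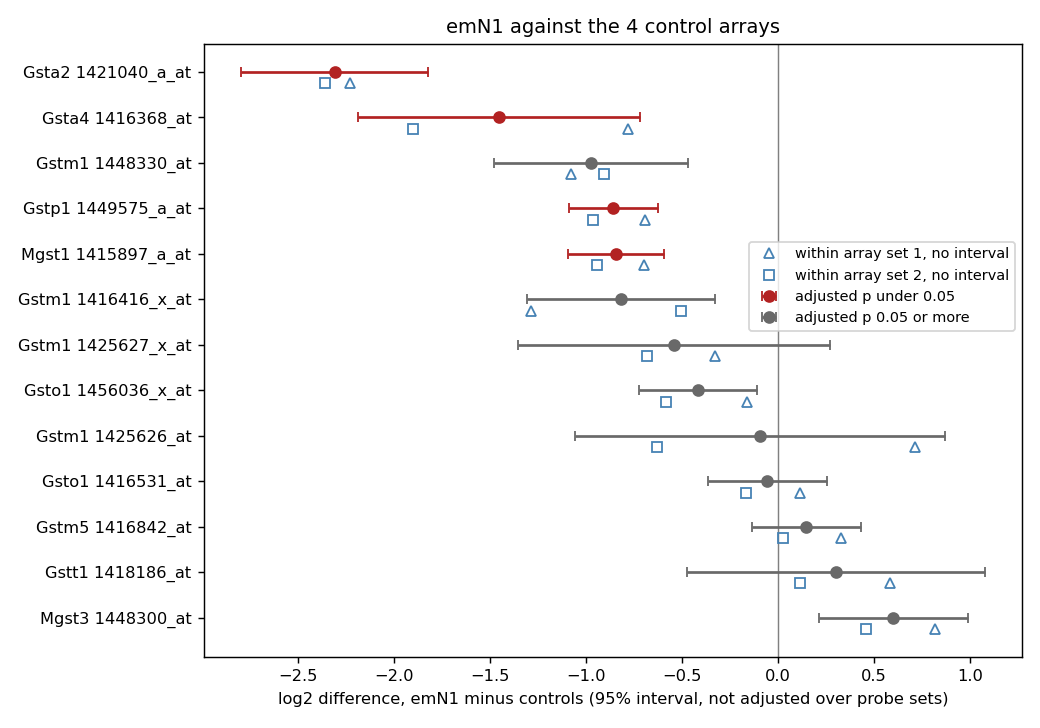
Log2 difference of emN1 minus the 4 controls for 13 probe sets, with 95% intervals that are not adjusted over probe sets. Red points passed limma (Gsta2, Gsta4, Gstp1 and Mgst1, all below 0), and open triangles and squares are the differences within each array set.

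In the mu class, Gstm1, a broad-range cytosolic transferase, was measured by 4 probe sets that differed among themselves. At 1448330_at it gave 719 and 536 in emN1, against 1539.5 and 968 (anN1) and 865 and 1269 (wild-type). The emN1 arrays lay under all controls, but the difference of -0.98 (SE 0.22) did not pass (limma adjusted p = 0.0515). After quantile normalization it passed (0.0472). At 1416416_x_at it gave 909 and 1005 in emN1, against 2245 and 1430.1 (anN1) and 1318 and 1558 (wild-type), again with emN1 under all controls, and a difference of -0.82 (SE 0.21; limma adjusted p = 0.0833).

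The other Gstm1 probe sets were dimmer. At 1425627_x_at the signals were 298 and 266 in emN1, against 379 and 677 (anN1) and 347 and 356 (wild-type). Here emN1 lay under all controls too, 1 anN1 array was higher than the other 5, and the difference of -0.54 (SE 0.35) did not pass (limma adjusted p = 0.517). At 1425626_at the signals were 281 and 152 in emN1, against 165 and 204 (anN1) and 231 and 314 (wild-type). These groups overlapped, and the difference of -0.09 (SE 0.42; limma adjusted p = 0.949) was 0.71 within the first array set and -0.63 within the second. The letter x marks probe sets with probes that may bind other sequences, and some mu-class genes are close copies.

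Gstm5, another mu-class gene, gave 11565 and 8261 in emN1, against 9200.3 and 9003 (anN1) and 7435 and 7992 (wild-type). The groups overlapped, and the difference was 0.15 (SE 0.12, 95% interval -0.14 to 0.43; limma adjusted p = 0.633). In the RefSeq gene order Gstm5, Gstm7, Gstm6, Gstm3, Gstm2, Gstm1 and Gstm4 follow each other with no other protein-coding gene between them. Along that cluster the log2 differences were -0.21 at Gstm7, -0.34 at Gstm3, -0.47 at Gstm2 and -0.57 at Gstm4, none of which passed (limma adjusted p = 0.853, 0.694, 0.300 and 0.304). Gstm6 was under background on every array. These neighbours were picked with their values in view.

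Gsto1, of the omega class, which reduces dehydroascorbate and mixed disulfides, had probe sets with different results. At 1416531_at it gave 6358 and 5262 in emN1, against 5867 and 5725 (anN1) and 5385 and 6715 (wild-type). There the groups overlapped, with a difference of -0.05 (SE 0.13) and a 95% interval of -0.36 to 0.25. At 1456036_x_at it gave 10171 and 8422 in emN1, against 11389 and 12322 (anN1) and 11496 and 14287 (wild-type). Both emN1 arrays lay under all controls there, with a difference of -0.42 (SE 0.13) that did not pass (limma adjusted p = 0.156).

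Gstt1, a theta-class enzyme that acts on small halogenated compounds, gave 242 and 277 in emN1, against 156 and 302 (anN1) and 236 and 229 (wild-type). Here emN1 lay within the range of the controls. The difference was 0.30 (SE 0.34; limma adjusted p = 0.737), and its 95% interval of -0.47 to 1.08 holds a change of 2-fold upward. In the RefSeq gene order Gstt3, Gstt1, Gstt4 and Gstt2 follow each other, and these neighbours were looked at with their values in view. Gstt3 gave 111 and 212 in emN1, against 558 and 586 (anN1) and 817 and 883 (wild-type). With 1 emN1 signal under the background limit, Gstt3 fell by 1.91 (SE 0.29; limma adjusted p = 0.0113), a call lost on leaving out emN1 replicate 1 (0.107), anN1 replicate 1 (0.123) or emN1 replicate 2 (0.129), and without the intensity trend (0.0556). Gstt4 gave 196 and 132 in emN1, against 19.3 and 21.9 (anN1) and 153 and 77.3 (wild-type) and did not pass the filter. Gstt2 gave 58.7 and 139 in emN1, against 266 and 260.4 (anN1) and 144 and 117 (wild-type), and its difference of -0.89 (SE 0.53) did not pass (limma adjusted p = 0.478).

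Set against each kind of control alone, in a fit of 3 groups, Gsta2, Gstp1 and Mgst1 passed both times. These comparisons share the emN1 arrays, and both wild-type arrays lie in the second array set. Against anN1, Gsta2 fell by 2.16 (SE 0.22), Gstp1 by 0.85 (SE 0.12) and Mgst1 by 0.73 (SE 0.088), with limma adjusted p of 0.00829, 0.0193 and 0.0125. That is 3 of 13 probe sets lower and 0 higher by limma, where 0.662% of all tested were lower, 1.35% higher and 2.02% either. Against wild-type, Gsta2 fell by 2.54 (SE 0.25), Gstp1 by 0.87 (SE 0.13) and Mgst1 by 1.02 (SE 0.098), with limma adjusted p of 0.00510, 0.0242 and 0.00484. Again 3 of 13 were lower and 0 higher, where 0.629% of all tested were lower, 1.53% higher and 2.16% either. Gsta4 passed in neither, at -1.50 (SE 0.39; limma adjusted p = 0.133) against anN1 and -1.38 (SE 0.43; 0.211) against wild-type.

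The pairwise calls of Gsta2, Gstp1 and Mgst1 kept their direction in the 14 alternatives with a test. All were lost on leaving out any 1 emN1 or anN1 array (limma adjusted p of 0.236 to 0.355 against anN1 and 0.0814 to 0.523 against wild-type) and without the intensity trend (0.158 to 0.265 and 0.123 to 0.304). Without the array set term Gsta2 passed against wild-type (0.0256) and not against anN1 (0.0630), and Gstp1 and Mgst1 passed in neither. With arrays scaled to equal medians Gstp1 passed in neither (0.0744 against anN1 and 0.0708 against wild-type), and Mgst1 did not pass against anN1 (0.124). Leaving out a wild-type array cannot change the difference against anN1, so those alternatives are no separate check on its size.

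Between the kinds of control, anN1 against wild-type, 0 of the 13 probe sets passed limma and 1 had an unadjusted p under 0.05. Of all tested, 0.074% passed, 0.0518% higher and 0.0222% lower. The 1 was Mgst1, at -0.29 (SE 0.098). Differences ran from -0.64 to 0.67, both at dim Gstm1 probe sets. For Gsta2 the difference was -0.38 (SE 0.25) and for Gstp1 -0.01 (SE 0.13). Notch1, outside the 13, differed by -1.13 (SE 0.20; limma adjusted p = 0.289) at its brighter probe set. At the other it differed by -0.19 (SE 0.22), and neither passed.

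**Figure D3:**
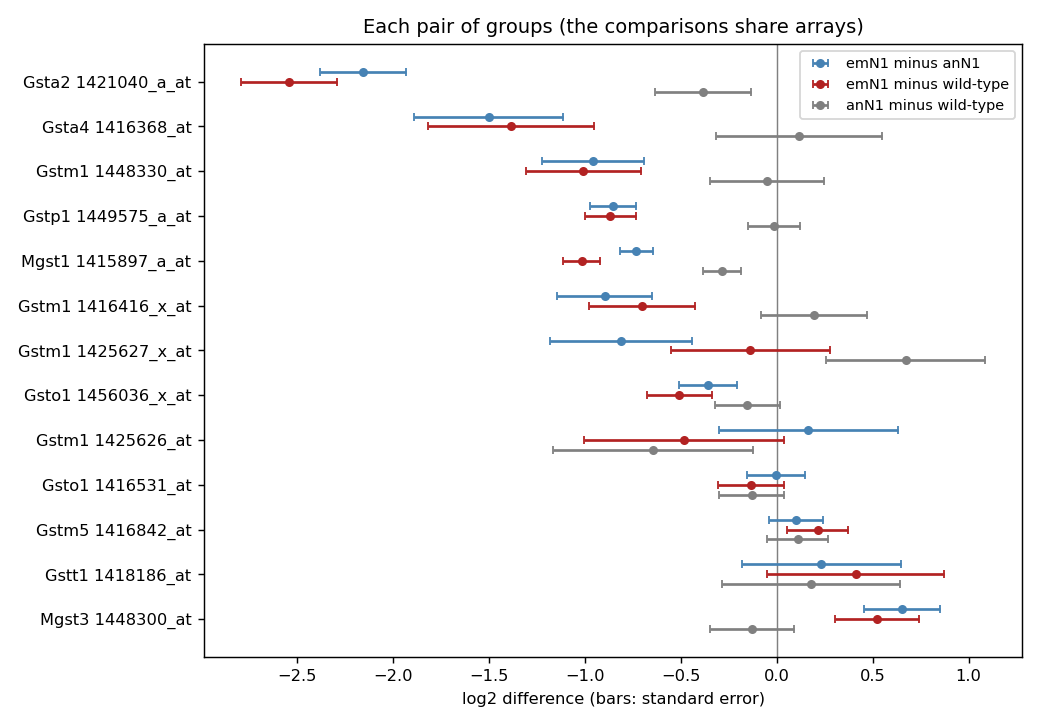
Log2 differences for each pair of groups with standard errors, for the same 13 probe sets. For Gsta2, Gsta4, Gstp1 and Mgst1 the emN1 minus anN1 and emN1 minus wild-type points lie below 0, and the anN1 minus wild-type points lie nearer 0.

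Other genes of glutathione metabolism were followed in lists, each gene by its brightest probe set that passed the filter. At this level 1.84% of 12611 genes were lower, 3.59% higher and 5.43% either, and the median difference was -0.02. Of 13 measured genes listed as the rest of the family, 1 fell (Gstt3), 1 rose (Gstk1) and 11 did not pass, with a list median of -0.25. This list also holds Alox5ap and Ptges, which do not carry the transferase name. They differed by 1.13 (SE 0.55) and 1.62 (SE 0.64) and did not pass. In the list 10 genes lay below 0 and 3 above, Alox5ap and Ptges among the 3. Gstk1, a mitochondrial and peroxisomal transferase of a separate class, gave 6018 and 5506 in emN1, against 4011 and 3319 (anN1) and 3425 and 3574 (wild-type). It was higher in both emN1 arrays than in any control, and rose by 0.64 (SE 0.11; limma adjusted p = 0.0211). It passed in 6 of 14 alternatives and was lost on leaving out emN1 replicate 1 (0.119), anN1 replicate 1 (0.110), emN1 replicate 2 (0.220), anN1 replicate 2 (0.0572) as well as wild-type replicate 1 (0.0517), and without the intensity trend (0.122), without the array set term (0.110) and with arrays scaled to equal medians.

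Of 14 measured genes of glutathione synthesis and turnover, 1 rose (Dpep1), 0 fell and 13 did not pass limma, with a median of -0.0087. Gclc and Gclm, the subunits of the rate-limiting enzyme of synthesis, were picked with their values in view and differed by 0.22 (SE 0.11) and -0.32 (SE 0.14). Dpep1, a dipeptidase that cleaves a product of glutathione breakdown, gave 2923 and 2742 in emN1, against 1826 and 1056 (anN1) and 1128 and 1529 (wild-type). It rose by 0.96 (SE 0.21; limma adjusted p = 0.0434), and another Dpep1 probe set, at 1.15, did not pass (0.0946). The call held in 4 of 14 alternatives and was lost on leaving out emN1 replicate 1 (0.141), anN1 replicate 1 (0.132), emN1 replicate 2 (0.402), anN1 replicate 2 (0.0820) as well as wild-type replicate 1 (0.0885), and without the filter on dim signal (0.0510), without the intensity trend (0.154), without the array set term (0.120), after quantile normalization (0.0501) and with arrays scaled to equal medians (0.0520).

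Of 12 measured genes of glutathione-dependent reduction, 1 fell (Gsr), 0 rose and 11 did not pass limma, with a median of 0.04. Gsr, glutathione reductase, which regenerates reduced glutathione, gave 348 and 897 in emN1, against 904 and 1804 (anN1) and 2854 and 2769.6 (wild-type). Within each array set its emN1 signal lay under the controls, and it fell by 1.38 (SE 0.23; limma adjusted p = 0.0150). The emN1 difference was -1.16 (SE 0.20) against anN1 alone and -1.71 (SE 0.23) against wild-type alone. Between the kinds of control, anN1 minus wild-type was -0.55 (SE 0.23), which did not pass. The other Gsr probe set differed by -0.16 (SE 0.25) and did not pass (0.826). The call of the first was lost on leaving out emN1 replicate 1 (0.124), anN1 replicate 1 (0.128) or emN1 replicate 2 (0.208), and without the intensity trend (0.0913) and without the array set term (0.228).

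Of 21 measured genes of the NRF2 pathway and its other targets, 1 rose (Maff), 0 fell and 20 did not pass limma, with a median of -0.05. Nfe2l2 itself, picked with its value in view, differed by -0.31 (SE 0.12; limma adjusted p = 0.231). Maff, which encodes a small partner protein of NRF2-type factors, gave 1326 and 1390.3 in emN1, against 433 and 606 (anN1) and 309 and 519 (wild-type). It rose by 1.56 (SE 0.30; limma adjusted p = 0.0263), a call lost on leaving out emN1 replicate 1 (0.206), anN1 replicate 1 (0.187) or emN1 replicate 2 (0.253), and without the intensity trend (0.105) and without the array set term (0.0590).

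Of 10 measured enzymes and regulators of the first phase of xenobiotic metabolism, 1 rose (Cyp2s1), 1 fell (Aldh1a3) and 8 did not pass, with a median of 0.11. Cyp2s1, a cytochrome of epithelia, gave 4146 and 4380.1 in emN1, against 2218 and 1769 (anN1) and 1476 and 1632 (wild-type). It rose by 1.21 (SE 0.17; limma adjusted p = 0.00804), a call lost on leaving out emN1 replicate 2 (0.174), and without the intensity trend (0.0749). Aldh1a3, which makes retinoic acid, gave 2727 and 2333 in emN1, against 5773 and 5136 (anN1) and 4910.2 and 5369.7 (wild-type). It fell by 1.11 (SE 0.12; limma adjusted p = 0.00308), a call lost on leaving out emN1 replicate 2 (0.105), and without the intensity trend (0.0554). Of its other probe sets, 1427395_a_at passed at -1.59 (0.00338) and 1417642_at did not at -0.98 (0.0870).

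**Figure D4:**
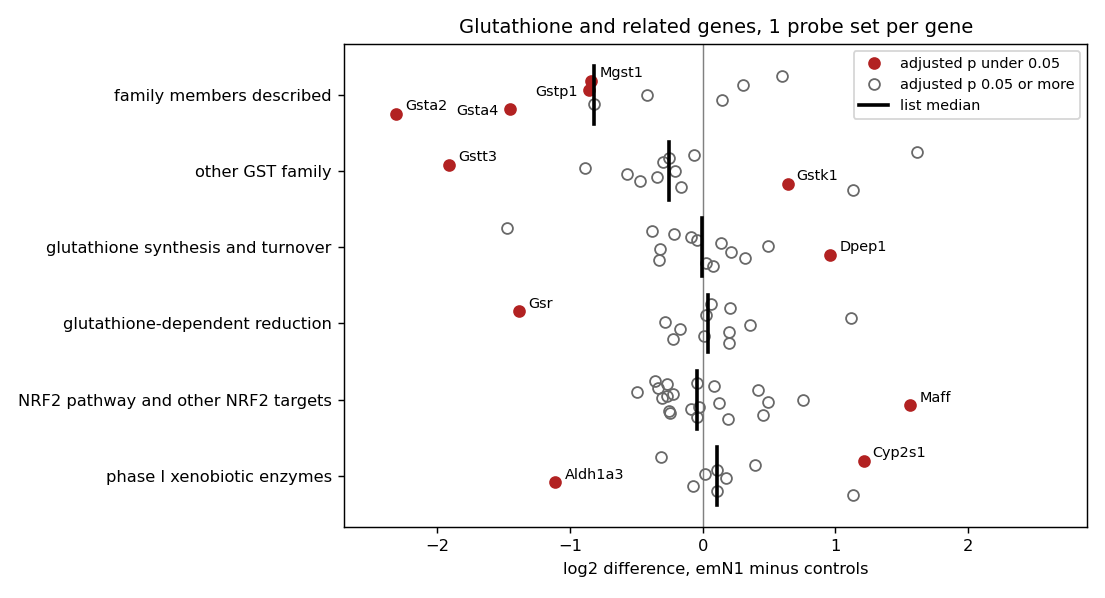
Log2 difference of emN1 minus controls for each gene of 6 lists, 1 probe set per gene. Filled points passed limma and bars are list medians, which run from -0.82 for the 9 transferase genes described to 0.11 for xenobiotic enzymes. Genes and lists were chosen with earlier results of these data known.

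The pattern of Gsta2 over the 6 arrays was most like that of Kif2c, Gli3, Ano1, Plekha8 and Cntn1 among 12611 genes, with Pearson r of log2 signal of 0.999, 0.998, 0.995, 0.994 and 0.992. Pearson r does not measure size. In that order the genes differed by -0.44, -0.79, -1.30, -0.55 and -1.68 between emN1 and the controls, against -2.31 for Gsta2. Kif2c did not pass (limma adjusted p = 0.0661). Gsta2 was taken for its smallest p in that comparison. All of these values rest on the same 6 arrays and are a description.

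Markers of other cell types also differed between the groups, and in whole bulbs fewer cells of a type and less RNA per cell cannot be told apart. Of 11 melanocyte markers 10 fell, with summed signals of 100161 to 117828 in emN1 and 232305 to 335079 in the controls. Of 8 macrophage markers 5 rose, with sums of 7951 to 9284 in emN1 and 1754 to 1943 in the controls. Of 8 fibroblast markers 4 rose, with sums of 97299 to 116655 in emN1 and 62184 to 82317 in the controls. Of 7 late cortex keratins 4 rose, with sums of 226990 to 259291 in emN1, 93471 to 125066 in anN1 and 18658 to 19065 in wild-type. The kinds of control stood apart here: Krt31, Krt33a, Krt81 and Krt83, picked with their values in view, were higher in anN1 than in wild-type by 2.21, 2.66, 1.70 and 2.25 on the log2 scale (limma adjusted p = 0.00126, 0.00145, 0.0327 and 0.00716). Of 6 epidermal markers 3 rose, with sums of 142999 to 180884 in emN1 and 59785 to 89038 in the controls. Of 6 sebaceous gland markers 2 rose, with sums of 34077 to 35593 in emN1 and 27219 to 31834 in the controls. Among these 6, 3 log2 differences lay below 0 and 3 above, with a median of 0.046. Of adipocyte markers 0 of 3 passed limma, with sums of 20900.1 to 23867 in emN1 and 12442 to 28226 in the controls. Of the bulb epithelium markers 3 of 15 rose, with sums of 621115 to 646628 in emN1 and 551857 to 591105 in the controls. These counts are over the markers that passed the filter. Across the array, 1.84% of 12611 genes were called lower in emN1 than in the controls and 3.59% higher. The part of these markers in the values of the glutathione transferases was not tested.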

How the data were processed

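Total RNA of hair follicle bulbs was hybridised to 6 one-colour oligonucleotide arrays (emN1, anN1 and wild-type, 2 each). Sample titles gave group and replicate, and the design text gave the array sets. Titles call the replicates biological; separate animals are not mentioned, and p-values cover the spread between these samples alone.

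The authors deposited 1 intensity per probe set and array. The submitters' processing notes name MAS5, with no version or settings. On each array the values between percentiles 2 and 98 average 1500.01, and they were not rescaled. Of 45101 probe sets, 64 controls were left out. The platform annotation names 1 gene for 34958, several for 932 and none for 9211.

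Intensities became log2(signal + 17.8), where the addend is percentile 10 of all values, which understates differences of dim probe sets. The upper 60% by mean log2 signal (27022) were tested in limma 3.58.1 (R 4.3.3; eBayes, intensity trend, two-sided tests) with array set as a term, at a Benjamini-Hochberg adjusted p under 0.05. A fit of 2 groups left 3 residual degrees of freedom and a fit of 3 groups left 2. The procedure was also run on simulated data without a difference between array sets, so that run is no check on the array set term. Figures were drawn with matplotlib 3.10.9.

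The design text ties replicate numbers of emN1 and anN1 to array sets, so these are paired. Across probe sets, the difference between replicates in emN1 correlated with that in anN1 at r = 0.38. With the difference between the wild-type replicates, both of the second array set, r was -0.19 for emN1 and -0.02 for anN1.

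Genes and lists were chosen with earlier results of these data known. Named are all probe sets of the 10 genes, up to 3 called genes of each pathway list by size, and the 5 genes most correlated with the transferase of smallest p. The pseudocount, filter, trend, array set term, scaling, background floor and each array were varied.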

Additional observations from a re-analysis of the deposited data

Results flagged for a closer look

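At the Gstm1 probe set 1425627_x_at, 1 of the 4 control arrays stood apart from the other 3. The signal was 677 in anN1 replicate 2, against 379 in anN1 replicate 1 and 347 and 356 in wild-type, and on the log2 scale its gap to the next was 0.87 of the whole range, above Dixon's critical value. Chance marks about 1 in 20 such groups, and 13 were examined.

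A signal outside the main measurement came from the control probe set for the phage recombinase Cre. The lowest of the 4 emN1 and anN1 signals was 394.7, while the wild-type signals were 62.4 and 79.0, under the background limit of 112. The labels do not mention Cre.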

How the results depend on the processing

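The numbers of probe sets called were 1020 for emN1 against controls, 545 against anN1, 584 against wild-type and 20 for anN1 against wild-type. Limma without the intensity trend called 0 in each, with 4044, 3109, 3003 and 1118 at an unadjusted p under 0.05. Without the replicate block (array set) the counts were 286, 42, 215 and 14. With arrays scaled to equal medians anN1 against wild-type gave 46. Leaving out 1 array gave 1 to 1092 for emN1 against controls, with 1 without emN1 replicate 2, 160 without emN1 replicate 1 and 190 without anN1 replicate 1. It gave 0 to 1269 against anN1, 0 to 1374 against wild-type and 0 to 173 between the kinds of control. An arm left with 1 array was assumed to vary like the other groups.

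Gsta2, Gsta4, Gstp1 and Mgst1 kept their direction in all 14 alternatives with a test and passed in 12, 6, 11 and 9 of them. Their log2 differences ran over -2.39 to -2.07, -1.90 to -0.78, -0.97 to -0.69 and -0.94 to -0.70. The alternatives are not all separate checks. Leaving out emN1 replicate 1 or anN1 replicate 1 gives the difference within the second array set both times. Leaving out emN1 replicate 2 gives that within the first. Gstm1 at 1425626_at turned to 0.71 within the first array set, and leaving out 1 array gave -0.63 to 0.71. Gsto1 at 1416531_at turned to 0.12 within the first array set, and leaving out 1 array gave -0.17 to 0.12. Without wild-type replicate 2 these were 0.04 and 0.0054. Neither passed in any setting, and the cause was not tested. The number of arrays limits what could pass.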
